A study of Mus musculus with 2 samples.

Results

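Insulin-like growth factor (IGF) signalling in the uterus was described through 10 genes: the ligand Igf1, the receptors Igf1r and Insr, and the binding proteins Igfbp1 to Igfbp7. They were taken by gene symbol from a table of 22740 genes, and all 10 were found. RNA sequencing had been done on the whole uterus of 2 C57BL/6 mice labelled WT on day 4 of pregnancy, with 1 library for each animal. The animals form a single group without a treatment or a genotype contrast, so the values describe levels and how far the animals lay apart. They are called uterus 1 and uterus 2. A whole uterus mixes epithelium, glands, stroma, muscle, vessels and leukocytes, and in such bulk RNA fewer cells of a type and less RNA per cell cannot be told apart.

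IGF1 is a secreted growth factor that binds a receptor tyrosine kinase, IGF1R, at the cell surface. The insulin receptor, INSR, is a close relative of that kinase and forms hybrids with it. The activated receptors recruit insulin receptor substrates and turn on the PI3K and AKT kinases, which favour growth and survival. IGF-binding proteins hold the ligand outside the cell, extend its life and limit or deliver it to the receptor, and proteases that cut them release it. In the rodent uterus oestrogen is known to raise Igf1, and stromal cells are a main source.

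Levels are the authors' RPKM (reads divided by transcript length and by the library's total, on a fixed scale), a scale on which genes of different length can be compared. The whole reads behind them were recovered, 3807297 in uterus 1 and 4230432 in uterus 2 over all genes, and the exact intervals below (95%, Poisson for a level, Clopper-Pearson for a ratio) cover counting error only. A gene was called detected at 1 RPKM or more in both uteri. Of 30 marker genes for uterine epithelium, glands, stroma, smooth muscle, endothelium and leukocytes, 27 were detected, including all 6 of stroma and all 6 of epithelium. Of 9 liver markers 2 were detected, Ttr and Cyp2e1, and Apoa1, Apoa2, Ahsg and Fgb were listed at 0 in both uteri. A further liver marker, Serpina1e, had 118 reads (22.4 RPKM) in uterus 1 but a listed 0 in uterus 2. Serpina1 genes are nearly alike in sequence, so its value is uncertain; whether reads were split among them was not tested. Of 5 ovary and oviduct markers, Ovgp1 (5.78 and 9.31 RPKM) and Star (2.93 and 3.87 RPKM) were detected, and no fat marker of 4 was.

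Of the 10 genes, 8 were detected in both uteri, beside 58.4% of all genes. Their median level was 72.3 RPKM, against 3.26 RPKM over the 22740 genes. The binding proteins ranged from Igfbp7 at rank 108 of all genes to Igfbp2 at rank 13780, and Igfbp1 was listed at 0.

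**Figure D1:**
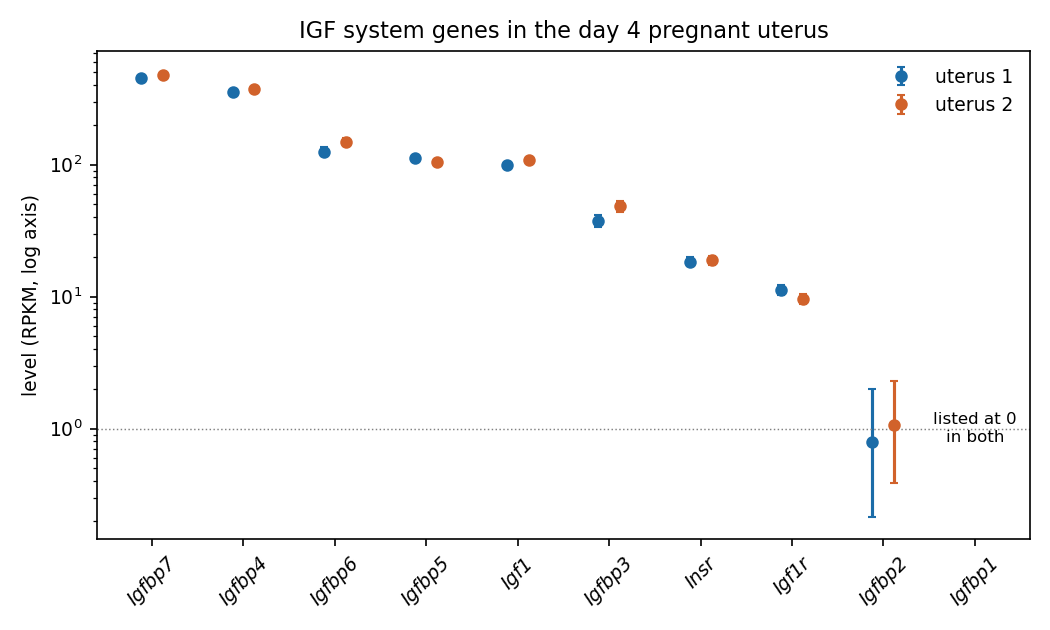
Level of each gene in RPKM on a log axis, with 1 point for each uterus and its exact 95% counting interval. Points of the 2 uteri nearly coincide for most genes, Igfbp7 and Igfbp4 lie highest, Igfbp2 lies near 1 RPKM with a wide interval, and Igfbp1 is listed at 0 in both.

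Igf1 (NM_184052, chromosome 10, 87323856 to 87378515, plus strand) was among the more abundant genes of the table. Uterus 1 had 99.9 RPKM and uterus 2 had 107.6 RPKM, a mean of 103.8 ± 5.43 (SD, n = 2), on 2995 and 3580 reads. It ranked 446th, above 98.0% of genes. The transcript length behind its RPKM came out as 7817 bases, the smallest that the values allow, which equals no annotated transcript with the deposited ends. The reads of Igf1, and the intervals and the test below, rest on that length, and a multiple of it would mean more reads. The GENCODE M1 annotation gives 9 Igf1 transcripts of 510 to 7121 bases, with 9921 bases of exon in all, so the level rests on which length is used. Divided by 7121 bases it would be 113.9 RPKM, and by 9921 bases 81.8 RPKM, although both keep the reads that go with 7817 bases.

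The receptors lay well below the ligand on the per-length scale. Insr (NM_010568, chromosome 8, 3150922 to 3279617, minus strand) had 18.3 RPKM in the first uterus and 18.8 RPKM in the other, a mean of 18.6 ± 0.332 (SD, n = 2), on 657 and 748 reads. Igf1r (NM_010513, chromosome 7, 75097143 to 75378553, plus strand) lay at 11.2 RPKM and 9.55 RPKM, a mean of 10.4 ± 1.14 (SD, n = 2), on 513 and 487 reads. Insr was the higher in both animals, and the counting intervals did not overlap: 16.9 to 19.8 RPKM for Insr against 10.2 to 12.2 RPKM for Igf1r in uterus 1, and 17.5 to 20.2 RPKM against 8.72 to 10.4 RPKM in uterus 2. The Igf1r level was 0.559 ± 0.0717 (SD, n = 2) of the Insr level.

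That order depends on the length of Igf1r. The deposited values divide its reads by 11978 bases, which equals an annotated transcript extended to the deposited ends. The deposited gene end lies 7069 bases beyond the last GENCODE M1 end. If all of its reads are divided by the longest GENCODE M1 transcript, 4181 bases, Igf1r comes to 29.7 RPKM and to 1.60 times the Insr level, so the order turns, although reads counted over the longer transcript are then divided by a shorter one. With reads not divided by length Igf1r was 0.716 of Insr, and the order was kept. Where along the transcript the reads lie was not measured in these tables.

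Igfbp7 and Igfbp4 led the binding proteins. IGFBP7 binds IGFs weakly and is known as a protein of vessels and matrix. Igfbp7 (NM_008048, chromosome 5, 77778265 to 77837070, minus strand) reached 450 RPKM in uterus 1 and 474 in uterus 2, a mean of 462 ± 17.2 (SD, n = 2), on 2093 and 2449 reads. Its end overlaps the end of Polr2b, on the other strand, by 89 bases, and reads there cannot be told apart if the counting did not use strand. Polr2b, an RNA polymerase subunit gene, lay at 33.2 ± 0.752 RPKM (SD, n = 2).

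IGFBP4 holds IGFs away from the receptor until the protease PAPP-A cuts it. Igfbp4 (NM_010517, chromosome 11, 98902574 to 98913957, plus strand) lay at 351 RPKM and 371 RPKM, a mean of 361 ± 14.3 (SD, n = 2), on 2781 and 3265 reads. It ranked 126th of all genes. Igfbp7 was 1.28 times as high as Igfbp4 in both uteri, and their ranges did not overlap.

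Igfbp6 and Igfbp5 formed a middle group with Igf1. IGFBP6 prefers IGF2 over IGF1. Igfbp6 (NM_008344, chromosome 15, 101974617 to 101979943, plus strand) reached 124.8 RPKM in uterus 1 and 148.7 in uterus 2, a mean of 136.8 ± 16.9 (SD, n = 2), on 617 and 816 reads. IGFBP5 binds extracellular matrix and bone mineral as well as IGFs. Igfbp5 (NM_010518, chromosome 1, 72904639 to 72921439, minus strand) lay at 111.3 RPKM and 104.0 RPKM, a mean of 107.7 ± 5.13 (SD, n = 2), on 2498 and 2592 reads. Igfbp5 and Igf1 did not differ beyond their spread: Igfbp5 was the higher in uterus 1, Igf1 in uterus 2, and their means were 1.04-fold apart. All other neighbours in the order kept it in both uteri with ranges that did not overlap. Igfbp6 over Igfbp5 was the closest of these, at 1.12-fold in uterus 1, where the lower end of the Igfbp6 counting interval, 115.2 RPKM, lay just under the upper end of that of Igfbp5, 115.7 RPKM.

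Igfbp3 was intermediate, and among the detected genes of these 10 it differed most between the animals. IGFBP3 is the main carrier of IGFs in serum. Igfbp3 (NM_008343, chromosome 11, 7106096 to 7113926, minus strand) had 37.2 RPKM in uterus 1 and 48.1 in uterus 2, a mean of 42.7 ± 7.74 (SD, n = 2), on 348 and 500 reads. Its counting intervals, 33.4 to 41.3 RPKM and 44.0 to 52.6 RPKM, did not overlap. In both animals it lay below Igf1 and above Insr.

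Igfbp2 had few reads and Igfbp1 was listed at 0. IGFBP2 is abundant in liver and nervous tissue, and IGFBP1 is a liver product that insulin represses and that marks the decidua in women. Igfbp2 (NM_008342, chromosome 1, 72871054 to 72899045, plus strand) had 4 reads in uterus 1 and 6 in uterus 2, which gave 0.786 RPKM (interval 0.214 to 2.01) and 1.06 RPKM (0.390 to 2.31). It passed 1 RPKM in uterus 2 only, and these few reads do not separate the animals. Igfbp1 (NM_008341, chromosome 11, 7097790 to 7102549, plus strand) was listed at 0 in both. Rpl26, which encodes a protein of the ribosome, is listed at 0 as well, so a listed 0 is not read as absence. Of 5 markers used for the decidua, Gja1 (a gap junction gene, 62.3 RPKM on average), Bmp2 (1.71 RPKM) and Wnt4 (1.67 RPKM) were detected, and the prolactin-family genes Prl8a2 and Prl3c1 were listed at 0.

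Added together, the 7 binding protein genes came to 1075 RPKM in uterus 1 and 1148 in uterus 2. This was 10.8 and 10.7 times the Igf1 level, a mean of 10.7 ± 0.0668 (SD, n = 2). The SD covers the animals and not the scale: the ratio was 2.74 with reads not divided by length and 13.2 with summed GENCODE M1 exons. Without Igfbp7, the weak binder, the sum was 6.26 times Igf1 in both uteri. Against Igf1r and Insr added together the binding proteins were 36.5 and 40.5 times as high, and on average 38.5 times, which falls to 23.3 times with the longest GENCODE M1 transcripts. Values on GENCODE M1 lengths keep the same reads and change only the length. On the longest transcripts Igf1r goes from 10.4 to 29.7 RPKM, its reads over 11978 bases being divided by 4181, and Insr stays at 18.6 RPKM. All ratios here are of transcript levels, and proteins were not measured.

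The make-up of the binding proteins was alike in the 2 animals. Igfbp7 made up 41.6% ± 0.368 (SD, n = 2) of the summed RPKM and Igfbp4 32.5% ± 0.210. Igfbp6 followed with 12.3% ± 0.954, Igfbp5 with 9.71% ± 0.909 and Igfbp3 with 3.83% ± 0.520. Igfbp2 held 0.0828% ± 0.0138. The share depends on the scale, as the plot of shares shows: Igfbp5 has a long transcript, so it held 29.9% and 26.9% of the reads but 10.4% and 9.06% of the RPKM, and Igfbp4 was the largest by reads, with 33.3% and 33.9%. The reads of Igfbp5 rest on 5854 bases, which equals an annotated transcript with the deposited ends. The smallest length its values allow, 2927 bases, would mean fewer reads and a smaller read share.

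**Figure D2:**
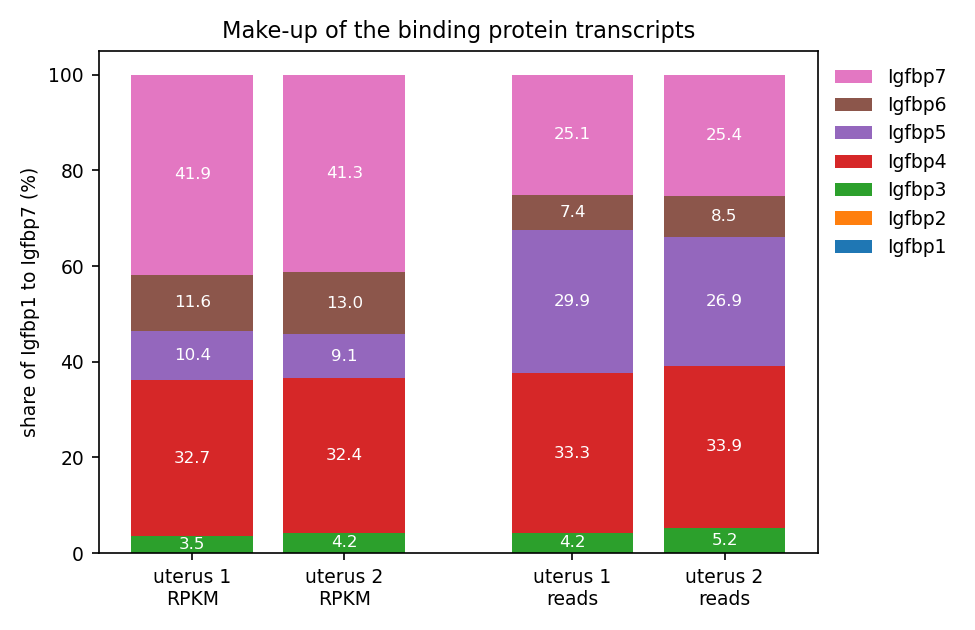
Share of each binding protein gene (percent) in the sum over Igfbp1 to Igfbp7, for each uterus, by RPKM on the left and by reads not divided by length on the right. The 2 uteri look alike on either scale, and Igfbp5 takes more of the reads than of the RPKM; Igfbp1 and Igfbp2 are too small to be seen.

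Of the 7 binding protein genes 4 lie in a pair of neighbours. On chromosome 11, Igfbp1 and Igfbp3 point toward each other with 3546 bases between their ends, and no other listed gene lies between. On chromosome 1, Igfbp2 and Igfbp5 do the same with 5593 bases between. Igfbp5 lay at 107.7 RPKM beside Igfbp2 at 0.924 ± 0.195 RPKM (SD, n = 2), and Igfbp3 at 42.7 RPKM beside Igfbp1 listed at 0, a value that is not read as a level. On the outer sides, Rpl37a, a ribosomal protein gene 110666 bases left of Igfbp2, lay at 840 ± 11.8 RPKM. Tns3, 1217728 bases right of Igfbp3, lay at 19.6 ± 0.724 RPKM (SD, n = 2 for both). Gm11985, 9217 bases from Igfbp1, and Tnp1, 140209 bases from Igfbp5, were listed at 0.

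**Figure D3:**
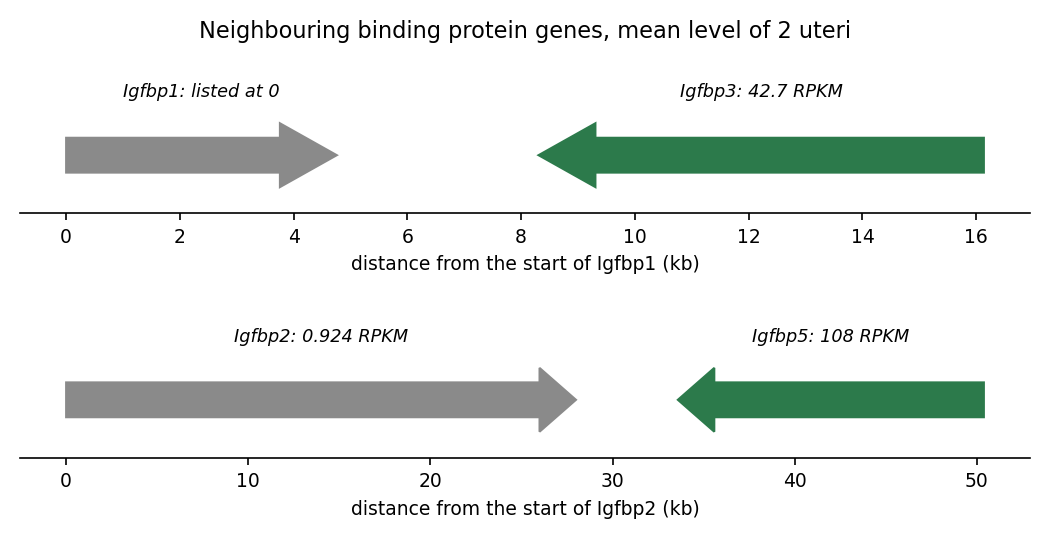
Maps of the Igfbp1 and Igfbp3 pair (top) and the Igfbp2 and Igfbp5 pair (bottom), drawn to scale as distance in kb from the start of the left gene, with arrows in the direction of transcription and the mean RPKM of the 2 uteri. In each pair the genes converge, and the gene in green, Igfbp3 or Igfbp5, has the higher deposited value; the listed 0 of Igfbp1 is not read as absence.

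To set the genes of each pair side by side, the 250 bases before their start sites are shown, from the RefSeq table of build GRCm38.p6, which is not the build of the deposited coordinates. CpG dinucleotides, common in promoters of widely used genes, are in capitals.

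Igfbp1, chr11:7197537-7197786, plus strand: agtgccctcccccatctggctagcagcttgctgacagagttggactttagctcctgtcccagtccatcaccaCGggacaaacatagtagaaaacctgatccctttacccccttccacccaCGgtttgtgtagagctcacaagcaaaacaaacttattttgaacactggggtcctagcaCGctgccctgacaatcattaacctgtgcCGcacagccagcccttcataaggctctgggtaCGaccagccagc

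Igfbp3, chr11:7213924-7214173, minus strand: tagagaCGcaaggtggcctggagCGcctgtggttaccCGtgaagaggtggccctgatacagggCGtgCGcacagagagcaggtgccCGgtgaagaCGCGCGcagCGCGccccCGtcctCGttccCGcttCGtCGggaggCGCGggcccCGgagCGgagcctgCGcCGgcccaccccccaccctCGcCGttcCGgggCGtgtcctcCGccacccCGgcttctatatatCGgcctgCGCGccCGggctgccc

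Igfbp2, chr1:72824230-72824479, plus strand: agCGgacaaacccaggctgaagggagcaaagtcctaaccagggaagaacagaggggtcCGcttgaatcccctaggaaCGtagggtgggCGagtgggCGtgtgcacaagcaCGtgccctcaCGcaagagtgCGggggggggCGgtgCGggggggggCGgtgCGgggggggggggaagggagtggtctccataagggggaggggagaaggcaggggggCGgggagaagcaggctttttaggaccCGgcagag

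Igfbp5, chr1:72874866-72875115, minus strand: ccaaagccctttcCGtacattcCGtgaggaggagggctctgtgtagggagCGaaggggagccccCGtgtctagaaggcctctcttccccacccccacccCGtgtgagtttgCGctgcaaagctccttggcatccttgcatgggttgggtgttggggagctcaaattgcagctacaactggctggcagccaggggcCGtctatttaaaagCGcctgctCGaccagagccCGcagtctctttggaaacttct

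The Igfbp1 window held 5 CpG and the Igfbp3 window 32, against a median of 10 over 19837 windows of the same length from genes in the table. In the second pair the CpG counts lay close together: Igfbp2, whose more upstream start of 2 is shown, held 14 and Igfbp5 held 10. Over the 9 genes with a window, the count did not follow the level. Igf1r, at 10.4 RPKM, held the most with 42, Igfbp7 held 26 and Igfbp4 22, whereas Igfbp6 held 7 and Igf1, at 103.8 RPKM, held 5 like Igfbp1. The letters TATAAA were found on the gene's own strand only before Igfbp4, 28 bases ahead of the start, and on the other strand before Igfbp6. On either strand they occur in 11.2% of all the windows. Such matches describe the letters of the window only.

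Between the animals, no detected member was 2-fold apart, beside 2.6% of the 13647 genes whose mean reached 1 RPKM. The log2 ratio of uterus 2 over uterus 1, after adding 0.1 RPKM to each value, ran from -0.22 (Igf1r) to 0.37 (Igfbp3) over the 8 members that reached it. Their median was 0.08, against 0.00067 over all genes. Of the 8, 6 were higher in uterus 2, beside 50.1% of all genes.

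A two-sided exact binomial test on the recovered reads, adjusted by Benjamini-Hochberg over 15141 genes, compared the 2 libraries, not conditions. It called 2 of the 9 members tested, beside 4.79% of all genes tested. Both were higher in uterus 2, the direction of 2.17% of all genes. At an unadjusted p under 0.05 it picked out 6 of the 9, Igf1, Igf1r, Igfbp3, Igfbp4, Igfbp5 and Igfbp6, beside 15.7% of all genes, and 4 of these were higher in uterus 2, beside 7.58%. The 15.7% is more than counting error by itself would give at that cut-off. More reads let the test call smaller ratios. The shares of all genes, which start at 6 reads in sum, were not matched for reads, so they show no excess among the members. Igfbp3 had a ratio of 1.29 and a log2 ratio of 0.37 (interval 0.17 to 0.57), with an adjusted p of 0.00839 in the exact test. Igfbp6 had a ratio of 1.19 and a log2 ratio of 0.25 (interval 0.10 to 0.41), with an adjusted p of 0.0284 in the exact test. The Igfbp3 call rests on a transcript of 2440 bases, which equals an annotated transcript with the deposited ends. With the smallest length the values allow, 610 bases, and a correspondingly smaller number of reads, its adjusted p in the exact test is 0.428.

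The other 7 tested members did not pass. Igf1 came closest, with an interval of 0.04 to 0.18 for the log2 ratio and an adjusted p of 0.0624 in the exact test. For Igf1r the interval was -0.41 to -0.04, with an adjusted p of 0.156, and for Igfbp5 it was -0.18 to -0.02, with an adjusted p of 0.166, both in the exact test. For Insr it was -0.12 to 0.19, for Igfbp4 0.01 to 0.15 and for Igfbp7 -0.01 to 0.16, so differences beyond these bounds were not seen. For Igfbp2 it ran from -1.64 to 2.70 and shows no more than the lack of reads.

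The spread of other genes at the same level gives a second measure. Among 2988 genes within 2-fold of the level of Igfbp3 the log2 ratio had an SD of 0.24, and 93.7% had a smaller absolute ratio than Igfbp3. For Igfbp6 the SD was 0.27 over 629 genes, and 84.6% had a smaller ratio. Igf1 was in the middle of its 948 genes, with 50.1% below it, and Insr was among the most alike, with 14.5% of 5880 genes below it. The plot of ratios by level shows Igfbp3 above the 5th to 95th percentile band of genes at its level and the rest inside theirs.

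**Figure D4:**
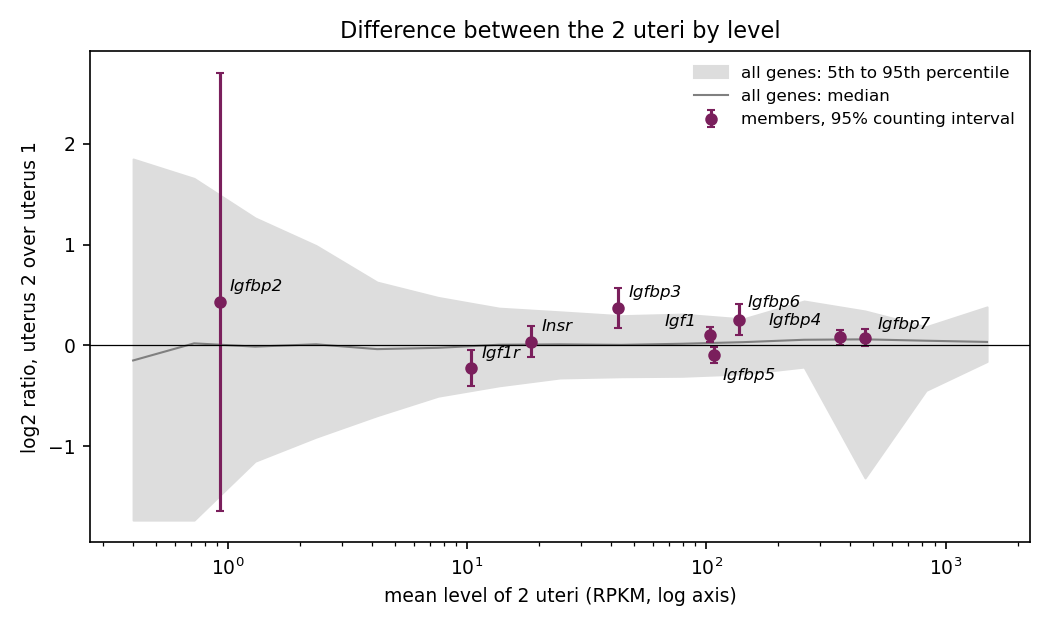
Log2 ratio of uterus 2 over uterus 1 against the mean level (RPKM, log axis). Points are the 9 members above 0 with exact 95% counting intervals, the grey band spans the 5th to the 95th percentile of all genes above 0 in both uteri, and the line is their median; Igfbp3 lies above the band, and the interval of Igfbp2 is the widest.

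Cell type markers also differed between the animals, and their part in these differences was not tested. The summed RPKM of the 6 epithelial markers was 293 in uterus 1 and 342 in uterus 2, and of 4 gland markers 53.6 and 83.0. None of the gland markers was called, and most of their sum was Spink3, at 46.4 and 71.8 RPKM (adjusted p of 0.0515 in the exact test). The same exact test called 8 of the 30 uterine markers, beside 4.79% of all genes, a share not matched for reads. Higher in uterus 2 were Krt18 (keratin 18) and Ltf (lactotransferrin) of the epithelium, Vim (vimentin) and Dcn (decorin) of the stroma and Myh11 (smooth muscle myosin). Higher in uterus 1 were Col1a1 (collagen type I) of the stroma, Acta2 (smooth muscle actin) and Kdr (a VEGF receptor of endothelium). The summed stromal markers were 4241 and 4146 RPKM, those of smooth muscle 1741 and 1737 RPKM and those of endothelium 135 and 131 RPKM.

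The pathway around these genes was covered by 6 lists with 87 genes, all present in the table, of which 69 were detected. The exact test called 7 of 71 tested list genes, 1 higher in uterus 2 and 6 higher in uterus 1, beside 4.79% of all genes.

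**Figure D5:**
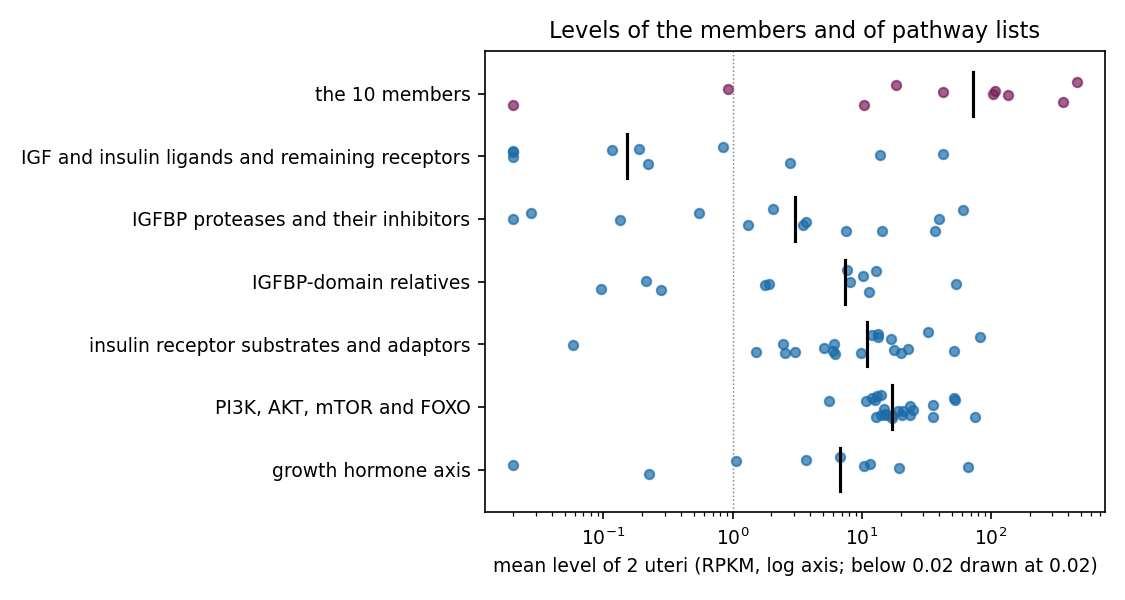
Mean level of each gene (RPKM, log axis) for the 10 members and for 6 pathway lists, with 1 point for each gene and a bar at the median (the mean of the medians in the 2 uteri). The members have the highest median, 72.3 RPKM, all PI3K, AKT, mTOR and FOXO genes lie above 1 RPKM, and the remaining ligands and receptors lie mostly below it.

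Of the remaining ligands and receptors of the family, 3 of 10 were detected. Igf2r, the receptor that clears IGF2 and carries lysosomal enzymes, was highest at 42.5 ± 1.53 RPKM (SD, n = 2). Insl6, an insulin-like gene known from testis, lay at 14.0 ± 1.88 RPKM on 32 and 43 reads. Igf2, the growth factor of the embryo, had 4.06 RPKM (66 reads) in uterus 1 and 1.55 RPKM (28 reads) in uterus 2. Of the 3 detected, only Igf2 was at least 2-fold apart, with a log2 ratio of -1.33 and an adjusted p of 0.000677 in the exact test. The insulin genes Ins1 and Ins2 were listed at 0, and Igfals, the serum partner of IGFBP3, had 1 read in each uterus.

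Of 13 proteases of binding proteins and their inhibitors, 9 were detected, with a median of 3.03 ± 0.396 RPKM (SD, n = 2). Plat (tissue plasminogen activator) was highest at 60.5 ± 3.77 RPKM, followed by Htra1 at 39.4 ± 1.29 RPKM and Adam12 at 36.7 ± 0.454 RPKM, both of which cut binding proteins. Pappa, which cuts IGFBP4, lay at 3.51 ± 0.280 RPKM on 140 and 174 reads. Its inhibitors Stc1 and Stc2 lay at 2.07 ± 0.713 and 3.70 ± 1.35 RPKM. Plau (urokinase) was higher in uterus 1, at 10.4 against 4.91 RPKM on 93 and 49 reads, with a log2 ratio of -1.06 and an adjusted p of 0.000935 in the exact test, the 1 gene of this list that was called.

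Of 11 genes whose proteins share the IGF-binding domain, 8 were detected, with a median of 7.42 ± 0.377 RPKM (SD, n = 2). None came near Igfbp7 or Igfbp4 in level. Ctgf, a matrix protein of the CCN family, was highest at 53.9 ± 1.63 RPKM, followed by Crim1 at 12.9 ± 2.68 RPKM and Cyr61 at 11.4 ± 2.22 RPKM. The exact test called Crim1 and Igsf10 higher in uterus 1, with adjusted p-values of 0.00906 and 0.0244.

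Downstream of the receptors, 19 of 20 receptor substrates and adaptors were detected, with a median of 10.9 ± 0.707 RPKM (SD, n = 2). Grb10, an adaptor that restrains the insulin and IGF1 receptors, was highest at 82.0 ± 2.32 RPKM, followed by Shc1 at 51.9 ± 1.48 RPKM and the phosphatase gene Ptpn11 at 32.7 ± 0.540 RPKM. Irs1 lay at 20.3 ± 3.29 RPKM and Irs2 at 2.44 ± 0.224 RPKM. Irs1 was the 1 gene of the list that was called, higher in uterus 1 at 22.7 against 18.0 RPKM (log2 ratio -0.33, adjusted p of 0.000573 in the exact test).

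All 24 genes of the PI3K, AKT, mTOR and FOXO list were detected, with a median of 17.3 ± 1.01 RPKM (SD, n = 2). Akt1 was highest at 74.9 ± 6.31 RPKM, followed by Pik3r1, the regulatory subunit of PI3K, at 52.8 ± 1.49 RPKM. Foxo1, a transcription factor that AKT keeps out of the nucleus, lay at 13.2 ± 3.11 RPKM. It was called higher in uterus 1, at 15.4 against 11.0 RPKM (log2 ratio -0.48, adjusted p of 0.00246 in the exact test), and the other 23 were not called.

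Growth hormone raises Igf1 in liver through its receptor, JAK2 and STAT5. Of 9 genes of that axis 6 were detected, with a median of 6.84 ± 0.954 RPKM (SD, n = 2). The receptor gene Ghr lay at 10.4 ± 0.737 RPKM. Jak2 was highest at 66.9 ± 10.1 RPKM, followed by Socs2 at 19.5 ± 0.534 RPKM and Stat5b at 11.5 ± 0.659 RPKM. Jak2 was called higher in uterus 2, at 74.0 against 59.7 RPKM (log2 ratio 0.31, adjusted p of 3.5e-06 in the exact test), whereas Gh itself was listed at 0.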

How the data were processed

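RNA from the whole uterus of 2 mice was poly-A purified and sequenced on a HiSeq2500, and expression was normalized by the authors to RPKM, per the series' design text. The submitters' processing notes name TopHat, edgeR and build mm9 without roles. The program that counted reads, its gene annotation and whether it used strand are not given in the sources used here. Deposited coordinates (build mm9, starts counted from 0) are printed counted from 1. The deposited RPKM of the 22740 genes are identical in both tables.

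From single-exon genes of known length, the value of 1 read was found in each library (scaling totals 3834174 and 4256101). All 289 and 291 such values were whole within 1e-06. Every one of 17426 genes above 0 was then a whole number of reads over a whole length, within 1e-12. A factor shared by reads and length was set from GENCODE M1 lengths, equal to an annotated length for 13626 genes, nearest for 2595 with a scale of 0.05 in the logarithm, and 1 for 1205 without a length. PCR copies are not independent molecules, so intervals cover counting error only.

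Detection was 1 RPKM in both libraries. Log2 ratios used a pseudocount of 0.1 RPKM, which understates the change of low genes. The exact binomial test (scipy 1.17.1) took genes with at least 6 reads in sum. Its code and the recovery were tested on simulated data. Named genes were all members, the 3 highest of each pathway list, list genes at least 2-fold apart with a mean of at least 1 RPKM, Igf2, Igf2r, Pappa, Stc1, Stc2, Irs1, Irs2, Foxo1, Ghr and the genes beside the Igfbp pairs. A result for 1 gene that this rule names is not reported here. Other genes named for a call or a listed 0 were chosen after their values were seen. Members and lists were chosen with earlier results of these data known. Alternatives covered thresholds, pseudocounts, the TPM scale, single libraries, transcript length and read recovery.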

Additional observations from a re-analysis of the deposited data

How the results depend on the processing

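Of 226 alternative values, 185 were classed as the same, and that class includes counts that moved to some extent. Detected members went from 8 to 9 at a threshold of 0.5 RPKM. Genes called in the whole table went from 726 to 581 with the smallest possible reads. With means of 2 libraries, leaving out either one moves a value by under 1 SD by construction. Transcript length turned orders. With reads not divided by length, Igfbp4 (33.6%) and Igfbp5 (28.4%) passed Igfbp7 (25.3%), and Igfbp6 (7.94%) came behind Igfbp5. The read share of Igfbp5 rests on its length of 5854 bases, and the smallest length allowed, 2927 bases, would lower it. Igf1r over Insr came to 0.716 with reads not divided by length. In 2 alternatives chosen after seeing the data it came to 1.60 with the longest GENCODE M1 transcripts and 1.54 with summed GENCODE M1 exons. The binding proteins over Igf1 came to 2.74 with reads not divided by length, and to 9.89 and 13.2 with the GENCODE M1 lengths. Values on GENCODE M1 lengths divide reads counted over the deposited transcripts by another length, a mismatch that is largest for Igf1r. With reads at their smallest possible values, 1 member was called in place of 2, since Igfbp3 then had fewer reads (adjusted p 0.428, exact binomial test). A sum of at least 20 reads, or the share of reads given by the authors' scaling totals, kept the count at 2. The TPM scale changes the unit, so list medians moved by construction, to 0.363 (remaining ligands and receptors), 7.17 (proteases and inhibitors), 17.6 (binding-domain relatives), 25.8 (substrates and adaptors), 40.9 (PI3K, AKT, mTOR and FOXO) and 16.2 (growth hormone axis). The count of detected members moved only with Igfbp2: thresholds of 0.5 RPKM, 1 TPM, or uterus 2 by itself gave 9. In the pathway lists, 2 RPKM left 2 ligands and receptors, 7 proteases and inhibitors, 6 domain relatives and 18 substrates, 0.5 RPKM, 1 TPM or uterus 2 by itself gave 7 genes of the growth hormone axis, and uterus 2 by itself gave 4 ligands and receptors. No paired analysis was possible because both libraries belong to the same group. Depth limits Igfbp2, on 4 and 6 reads.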

Other observations

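Insl6 and Jak2, which stand in different pathway lists, are neighbours on chromosome 19. In the deposited coordinates Jak2 spans 29326318 to 29387570 on the plus strand and Insl6 spans 29395844 to 29399808 on the minus strand, so their ends point toward each other with 8273 bases between. Jak2 lay at 59.7 and 74.0 RPKM in uterus 1 and uterus 2 on 1152 and 1585 reads, and Insl6 at 12.6 and 15.3 RPKM on 32 and 43 reads. Both were higher in uterus 2, and the exact binomial test gave Insl6 an adjusted p of 0.810, so its difference was not detectable at this depth. The relation of the 2 levels was not tested.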
